A study of Mus musculus with 36 samples.

Results

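Gm13544 is a long non-coding RNA gene on mouse chromosome 2 whose transcript was read in the cerebellum of Pogz cKO-/- mice and in none of the control cerebella. It lies inside Acvr1c, on the other strand, and the question is whether its rise was shared by the genes around it. Described here are 8 of the 24421 genes listed in the count tables: Gm13544, Acvr1c and 6 genes around them, namely Galnt5, Cytip, Acvr1, Upp2, Ccdc148 and Pkp4. Gm13544 was selected on its cerebellar rise, so its cerebellar values are given as a description with no test. The other 7 genes were chosen for their position, with earlier results of these data known.

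Cerebellum and hippocampus of 18 adult C57Bl/6 mice were each sequenced as poly(A) RNA, with 3 males and 3 females of each of 3 genotypes. Control mice were Pogz fl/fl without Cre, cKO+/- mice were NesCre/+; Pogzfl/+ and cKO-/- mice were NesCre/+; Pogzfl/fl. Cre was driven by the Nestin promoter and removes the floxed part of Pogz in cells of the nervous system, while other cells of the tissue keep their alleles. All cKO mice carried Cre and no control did, so that Cre and the loss of Pogz cannot be told apart against controls; cKO-/- and cKO+/- mice both carried it. In bulk tissue, fewer cells of a type and less RNA per cell cannot be told apart either.

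A long non-coding RNA is transcribed, spliced and often polyadenylated like a messenger RNA but is not translated into protein. Acvr1c (ALK7) and Acvr1 (ALK2) encode type I receptors of the TGF-beta superfamily: a ligand brings a type I and a type II receptor together, and the type I kinase then phosphorylates SMAD proteins, which enter the nucleus. ALK7 serves activin and NODAL ligands and signals through SMAD2 and SMAD3, whereas ALK2 mainly serves BMP ligands and signals through SMAD1, SMAD5 and SMAD9. POGZ is a zinc finger protein of chromatin that binds heterochromatin protein 1 and is studied as a repressor of transcription.

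In the coordinates of the count tables, which match GRCm38, Gm13544 covers chr2:58276779-58286902 on the plus strand, with 4 exons of 84, 211, 162 and 2483 bases. Acvr1c covers chr2:58267453-58357758 on the minus strand, so the whole of Gm13544 lies within it, and the first exon of Gm13544 lies 80979 bases from the 5′ end of Acvr1c. Only the last exon of Gm13544 meets an exon of Acvr1c. That exon contains the whole Acvr1c exon at chr2:58284832-58284999, and the 168 shared bases make up 5.71% of the exonic length of Gm13544 and 1.86% of that of Acvr1c. No exon of any other of the 8 genes overlaps one of another listed gene within 3 Mb. Acvr1 ends 505 bases before Upp2 begins, and the pair is transcribed away from this gap.

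**Figure D1:**
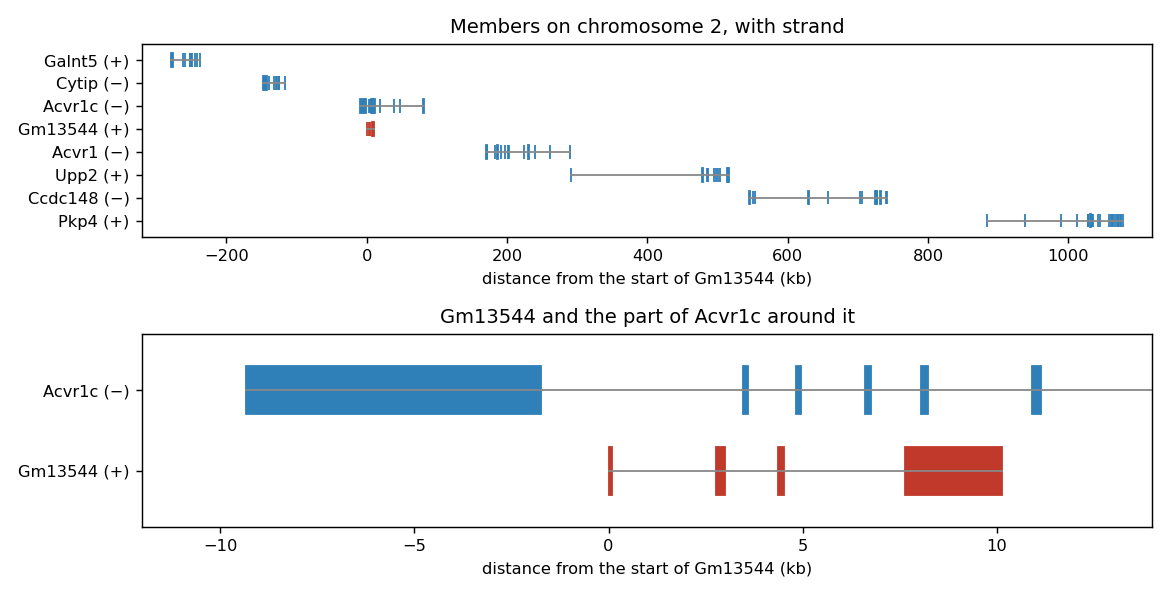
Exons of the 8 genes (boxes) joined by lines along chromosome 2, as distance in kb from the start of Gm13544, with each gene's strand in brackets; the lower panel enlarges Gm13544. The last exon of Gm13544 spans a whole exon of Acvr1c of 168 bases, and its other 3 exons lie in introns of Acvr1c.

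The start regions of the overlapping pair are shown because they differ in their density of CG dinucleotides, which is high in CpG-island promoters. Each is the RefSeq window of GRCm38.p6 from 250 bases before to 50 bases after the gene's start, at chr2:58276529-58276828 on the plus strand and chr2:58357709-58358008 on the minus strand, and capitals mark CG dinucleotides.
Gm13544: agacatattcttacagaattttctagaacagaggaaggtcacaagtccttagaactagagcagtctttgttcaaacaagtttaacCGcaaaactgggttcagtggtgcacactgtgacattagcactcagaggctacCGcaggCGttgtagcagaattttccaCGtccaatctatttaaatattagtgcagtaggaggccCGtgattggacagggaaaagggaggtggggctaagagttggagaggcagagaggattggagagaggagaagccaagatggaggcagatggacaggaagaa
Acvr1c: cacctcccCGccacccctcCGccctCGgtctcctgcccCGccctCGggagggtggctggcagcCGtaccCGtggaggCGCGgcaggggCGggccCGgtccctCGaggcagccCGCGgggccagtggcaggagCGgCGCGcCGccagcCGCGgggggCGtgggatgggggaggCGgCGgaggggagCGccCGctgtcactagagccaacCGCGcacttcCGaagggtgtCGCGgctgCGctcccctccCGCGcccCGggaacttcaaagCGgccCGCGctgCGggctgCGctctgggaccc

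The Gm13544 window held 5 CG dinucleotides and was 46.3% G or C, against a median of 7 and 52.7% over 32851 promoters of the same length. The Acvr1c window held 39 and was 79.0% G or C, and 4.45% of all promoters held at least as many. RefSeq gives Acvr1c a second start, at chr2:58324758-58325057, whose window held 2 and was 50.3% G or C, so that the contrast with Gm13544 is one of the first window. All 8 genes had at least 1 window in the table. The other neighbours fell on both sides, with 51 CG dinucleotides for Acvr1, 33 for Ccdc148 and 5 for Galnt5. The Ccdc148 window, at chr2:59160634-59160933, lies beyond the end of that gene as counted, at 59018606. It overlaps a Pkp4 window at chr2:59160600-59160899. The letters CCAAT, searched on both strands, occurred 3 times in the Gm13544 window and not in that of Acvr1c; 37.4% of all promoters held them. TATAAA occurred in neither window on either strand and in 13.6% of all promoters.

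Cerebellar libraries held 21421850 to 32544929 counts and hippocampal libraries 17609321 to 45544188. The summed level of 6 cerebellar markers was 4878 to 8300 CPM (counts per 1000000 counted reads, with TMM factors) in cerebellar and 148 to 510 CPM in the fitted hippocampal libraries, and that of 6 hippocampal markers 122 to 204 and 1855 to 2875 CPM. Pogz itself lay between 89.6 and 129.6 CPM in control cerebella, between 66.4 and 81.5 in cKO+/- and between 57.0 and 74.0 in cKO-/- cerebella; the counts cover the whole gene, not the deleted exons alone. Controls and cKO-/- mice did not overlap for Pogz in the cerebellum or in the hippocampal libraries fitted. The hippocampal cKO-/- library of Sample_1160 stood apart from the other 17, with a median correlation of 0.886 with them where the next lowest library had 0.980. It was left out of the hippocampal fits, which leaves 5 cKO-/- libraries there, and values with it are given beside the results it touches. Animal numbers of all controls fall in the run from Sample_1120 to Sample_1219, and those of 3 cKO+/- and 4 cKO-/- mice do not.

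Gm13544 had 0 counts in each of the 6 control cerebella. In the 6 cKO+/- cerebella it had 3 counts in Sample_933, 2 in Sample_938, 1 in Sample_1120, 2 in Sample_1176, 2 in Sample_1189 and 12 in Sample_1433. In the 6 cKO-/- cerebella it had 277 counts in Sample_936, 358 in Sample_1160, 474 in Sample_1219, 217 in Sample_1371, 278 in Sample_1379 and 367 in Sample_1385. The 3 genotypes thus did not overlap, and the cKO+/- libraries lay close to the controls rather than midway. Scaled for depth, the mean was 12.4 ± 2.91 CPM (SD, n = 6) in cKO-/- and 0.119 ± 0.124 CPM (SD, n = 6) in cKO+/- mice. Against a floor of 3 counts per control library, cKO-/- mice were at least 117-fold higher. Against cKO+/- mice, with 22 counts in all, the ratio was 98.8 (95% interval 65.1 to 158, exact for counting error only), and without Sample_1433 it was 177 (96.1 to 370). The fitted log2 fold change was 6.52 per allele lost, a straight line through 3 groups that did not lie on one, and is no measure of the size.

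Among the cKO-/- cerebella, the 2 within the run of animal numbers had the highest levels, with Sample_1160 at 16.0 CPM and Sample_1219 at 15.8 CPM. The run is wider than the controls, which were numbered from Sample_1129 to Sample_1192. Sample_1160 lies between control numbers, and Sample_1219 lies above them all. The other 4 had between 9.45 and 12.5 CPM. Within the run the ratio of cKO-/- to cKO+/- was 279 (119 to 862), and outside it 55.1 (34.2 to 94.9). Sample_1433 gave 12 of the 17 cKO+/- counts outside the run, and without it the ratio there was 118 (50.3 to 363), an interval that overlaps the one within the run. These intervals cover counting error only, and the split was chosen with the values known. The ratios on its 2 sides therefore describe these animals and are no test of the split. Both sexes were present on each side of this division, and Gm13544 was high in all 6 cKO-/- animals.

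In the hippocampus Gm13544 was lower, and the cKO-/- libraries again stood apart from the rest. Control hippocampi had 1 count in Sample_1129, 3 in Sample_1190, 1 in Sample_1192 and 0 in the other 3, and cKO+/- hippocampi had 1 count in Sample_1176, 1 in Sample_1433 and 0 in the other 4. The cKO-/- hippocampi had 18 counts in Sample_936, 22 in Sample_1219, 11 in Sample_1371, 11 in Sample_1379 and 17 in Sample_1385, and Sample_1160 had 20. Each cKO-/- library lay above every control and every cKO+/- library, Sample_1160 included. The mean level was 0.570 ± 0.092 CPM (SD, n = 5) in cKO-/- and 0.0226 ± 0.029 CPM (SD, n = 6) in control mice (P = 0.00216, 2-sided exact permutation test, the smallest p this design allows). The ratio of cKO-/- to control was 26.5 (95% interval 10.9 to 84.0, for counting error only) and that of cKO-/- to cKO+/- was 58.4 (15.6 to 490). Over all 18 libraries p was again 0.00216 and the ratio to control 26.0. The gene did not pass the filter for testing across genes, which asked for over 1 CPM in at least 6 libraries. Of 6380 hippocampal genes below this filter with a read, 1.68% had all cKO-/- libraries on 1 side of all controls. The animals are those of the cerebellar libraries, so that the hippocampus is a second tissue and not a second set of mice.

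**Figure D2:**
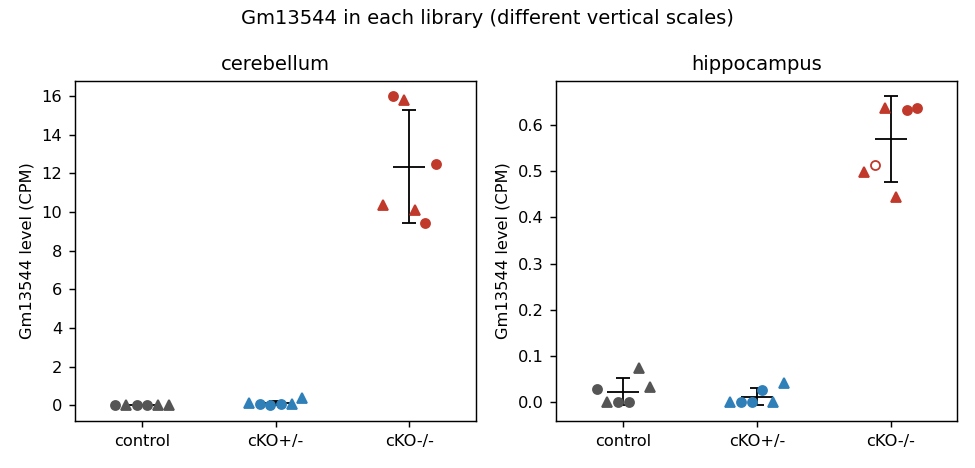
Gm13544 level in CPM (vertical axis, a different scale in each panel) in every library by genotype, with females as circles, males as triangles, Sample_1160 hippocampus as an open circle, and bars for the mean and SD without it. The 6 cKO-/- cerebella lie between 9.45 and 16.0 CPM, and the 6 cKO-/- hippocampi between 0.444 and 0.638 CPM, above all other libraries.

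In each of the 6 cKO-/- animals the cerebellum held more Gm13544 than the hippocampus, by 15.0-fold in Sample_1379 to 31.1-fold in Sample_1160, with a median of 21.8-fold. Per kilobase of exon the cKO-/- cerebellum had 4.20 ± 0.99 RPKM (CPM divided by exon length in kilobases; SD, n = 6) of Gm13544. On the same scale Acvr1c had 2.40 ± 0.50 RPKM (SD, n = 6) there, so that in each cKO-/- cerebellum Gm13544 exceeded the gene that surrounds it, by 1.33-fold to 2.19-fold. In the hippocampus it stood at 0.0491 to 0.0881 of the Acvr1c level in the 5 libraries fitted and at 0.122 in Sample_1160.

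Acvr1c did not follow. Its cerebellar level lay between 23.9 and 28.3 CPM with a median of 26.2 in control mice, between 17.97 and 35.2 with a median of 24.3 in cKO+/- mice, and between 15.5 and 28.1 with a median of 22.8 in cKO-/- mice. The 3 genotypes overlapped, and the cKO libraries spread more widely than the controls, with an SD of 1.64 CPM in control, 5.72 in cKO+/- and 4.56 in cKO-/- mice. The log2 fold change was -0.13 per allele lost (95% interval -0.28 to 0.024, adjusted p = 0.243, edgeR quasi-likelihood test), so that a rise of over 0.024 per allele lies outside the interval. Of 14027 genes tested in the cerebellum, 13.7% passed an FDR of 0.05. The strand setting of the counting is not stated, and reads on the shared exon could have been assigned to either gene or to neither. At the level of Gm13544 in cKO-/- cerebella, the 168 shared bases would hold 0.706 CPM, or 3.25% of the Acvr1c counts there.

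In the hippocampus Acvr1c lay between 19.8 and 27.2 CPM with a median of 21.8 in control mice, between 19.3 and 24.2 with a median of 22.5 in cKO+/- mice, and between 22.3 and 30.2 with a median of 27.1 in the 5 cKO-/- mice. The groups overlapped, and the log2 fold change was 0.10 per allele lost (95% interval -0.004 to 0.21, adjusted p = 0.265), where 4.44% of 14339 genes passed. With the library of Sample_1160, in which Acvr1c was lowest at 12.98 CPM, it was 0.04 (adjusted p = 0.774). The allele effect was thus fitted as negative in the cerebellum and positive in the hippocampus. The difference, hippocampus minus cerebellum, was 0.22 (95% interval 0.03 to 0.41, adjusted p = 0.272, edgeR) and did not pass the FDR, while 203 of 13587 genes (1.49%) did. With the animal as a block the difference was 0.24 (adjusted p = 0.234), and 338 genes passed.

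Acvr1, the BMP type I receptor gene that follows on chromosome 2, lay between 26.0 and 37.1 CPM in control and between 27.2 and 41.6 CPM in cKO-/- cerebella. The log2 fold change was 0.09 per allele lost (95% interval -0.005 to 0.19, adjusted p = 0.187). In the hippocampus it was 0.06 (95% interval -0.04 to 0.16, adjusted p = 0.471). In Sample_1160 Acvr1 stood at 24.4 CPM, below the 34.1 to 54.0 CPM of the other hippocampi, and with that library the value was 0.01 (adjusted p = 0.959).

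Upp2, a uridine phosphorylase that splits uridine into uracil and a sugar phosphate, lay between 5.44 and 10.7 CPM in control and between 6.19 and 12.3 CPM in cKO-/- cerebella. It had log2 fold changes of 0.13 (95% interval -0.05 to 0.32, adjusted p = 0.333) in cerebellar and -0.07 (-0.19 to 0.06, adjusted p = 0.537) in hippocampal libraries. Ccdc148, a coiled-coil protein gene, lay between 7.26 and 8.66 CPM in control and between 7.13 and 10.9 CPM in cKO-/- cerebella. Its log2 fold changes were 0.11 (-0.01 to 0.23, adjusted p = 0.209) and 0.10 (0.01 to 0.18, adjusted p = 0.171). Like Acvr1, neither gene passed the FDR in either tissue, and the genotypes overlapped in both.

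Pkp4 encodes plakophilin 4 (p0071), an armadillo-repeat protein of cell junctions, and was the neighbour closest to the threshold. It lay between 358 and 442 CPM with a median of 376 in control cerebella, between 399 and 460 with a median of 414 in cKO+/- and between 395 and 510 with a median of 438 in cKO-/- cerebella. The groups overlapped, and the log2 fold change was 0.10 per allele lost (95% interval 0.03 to 0.17, adjusted p = 0.0645). DESeq2 put it past the threshold (adjusted p = 0.0312), and so did edgeR without the control Sample_1170 (0.0265) or the cKO-/- Sample_1160 (0.0329). In the hippocampus it was 0.05 (95% interval -0.0002 to 0.10, adjusted p = 0.251). Among its relatives, Pkp2 had 0.30 (adjusted p = 0.0664) in the cerebellum and -0.12 (0.221) in the hippocampus, a difference between tissues that passed (adjusted p = 0.0410) but not with the animal as a block (0.0658). None of the tested genes among Pkp1 to Pkp4, Ctnnd1 and Ctnnd2 passed within either tissue.

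**Figure D3:**
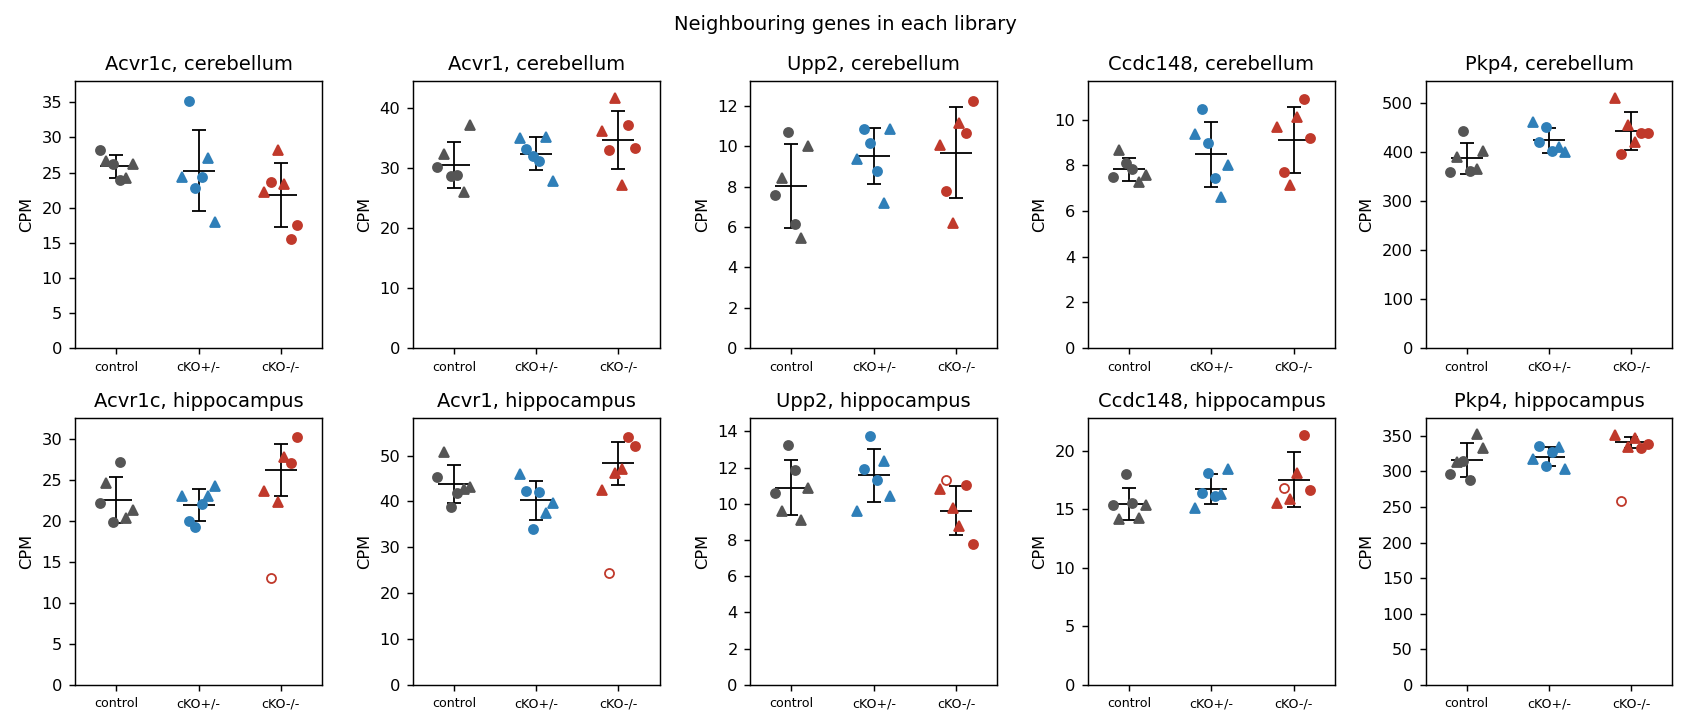
Levels in CPM of the 5 neighbours that passed the filter (vertical axes from 0) in every library by genotype and tissue, with symbols, means and SDs drawn as for Gm13544. The genotypes overlap in every panel, with Acvr1c between 15.5 and 28.1 CPM in cKO-/- cerebella against 23.9 to 28.3 in controls.

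Pairs of genotypes gave the same picture for these 5 genes. Of 14027 cerebellar genes, 12.7% passed between cKO-/- and control, 0.342% between cKO+/- and control and 0.413% between cKO-/- and cKO+/-, and none of the 5 neighbours did in any. Pkp4 between cKO-/- and control cerebella came closest to it (0.20, 95% interval 0.05 to 0.35, adjusted p = 0.0723), and passed with DESeq2 (0.0372), without Sample_1170 (0.0259) and without Sample_1160 (0.0406). In the hippocampus 4.87%, 0.0349% and 0.718% of genes passed in these contrasts, and again none of the 5. The closest in the last contrast, in which both groups carry Cre, was hippocampal Acvr1 with a log2 fold change of 0.26 (95% interval 0.09 to 0.44, adjusted p = 0.153), and Acvr1c had 0.26 (0.06 to 0.46, adjusted p = 0.199). Without Sample_936, Acvr1 passed (0.31, adjusted p = 0.0428); with Sample_1160 it was 0.14 (adjusted p = 0.665). Cerebellar Acvr1c had -0.25 (-0.56 to 0.05, adjusted p = 0.246) between cKO-/- and control mice. No gene passed for a sex difference in the allele effect in either tissue under edgeR, while 557 cerebellar and 770 hippocampal genes had an unadjusted p under 0.05, and the smallest unadjusted p among the 5 neighbours was 0.166 in the cerebellum and 0.108 in the hippocampus.

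Cytip and Galnt5 lay below the filter in both tissues and were compared between control and cKO-/- mice by 2-sided exact permutation tests, 5 in all with that of hippocampal Gm13544. Cytip encodes a cytohesin-interacting protein of lymphoid cells that takes part in cell adhesion. In control cerebella it had 1 count in Sample_1129, 3 in Sample_1155, 0 in Sample_1170, 4 in Sample_1172, 3 in Sample_1190 and 2 in Sample_1192. In cKO-/- cerebella it had 8 counts in Sample_936, 8 in Sample_1160, 13 in Sample_1219, 8 in Sample_1371, 9 in Sample_1379 and 11 in Sample_1385, each above every control. The cKO+/- cerebella had 2 to 7 counts and overlapped with the controls. The mean was 0.0746 ± 0.050 CPM (SD, n = 6) in control mice and 0.357 ± 0.050 CPM (SD, n = 6) in cKO-/- mice (P = 0.00216, exact permutation test, the smallest this design allows). Of 6060 cerebellar genes below the filter with a read, 1.47% were separated in this way. With no filter, edgeR gave Cytip a log2 fold change of 1.11 per allele lost (adjusted p = 0.00362).

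Markers of lymphocytes and microglia moved with it. Their summed level over 6 genes lay between 28.9 and 35.0 CPM in control, 32.5 and 49.8 in cKO+/- and 32.2 and 56.0 in cKO-/- cerebella, 3 of the 4 that passed the filter rose, and none of the 6 was at 0 in any genotype; their part in the rise of Cytip was not tested. In the hippocampus Cytip went the other way without passing: control mice had 1 to 44 counts, cKO-/- mice 0 to 8, and the means were 0.295 ± 0.413 CPM (SD, n = 6) and 0.103 ± 0.118 CPM (SD, n = 5; P = 0.400, exact permutation test). Sample_1172 with 44 and Sample_1129 with 21 counts set the control mean there.

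Galnt5, a transferase that starts mucin-type O-glycans, had 0 to 8 counts in control and 1 to 6 in cKO-/- cerebella, which overlapped (P = 0.182, exact permutation test). In control hippocampi it had 4 counts in Sample_1129, 11 in Sample_1155, 9 in Sample_1170, 4 in Sample_1172, 8 in Sample_1190 and 4 in Sample_1192. In cKO-/- hippocampi it had 12 counts in Sample_936, 10 in Sample_1219, 14 in Sample_1371, 11 in Sample_1379 and 17 in Sample_1385, and 1 in Sample_1160. Scaled for depth the 5 cKO-/- libraries lay above all controls, the closest pair being Sample_1219 at 0.290 CPM and the control Sample_1155 at 0.286 CPM. The means were 0.491 ± 0.168 CPM (SD, n = 5) and 0.169 ± 0.072 CPM (SD, n = 6; P = 0.00216, exact permutation test). With Sample_1160, which lay below every control at 0.0257 CPM, the groups overlapped and p was 0.0476. With no filter and without Sample_1160, edgeR gave 0.73 per allele lost (adjusted p = 0.0240). The other genes of the Galnt family gave 3 rises and 1 fall among 14 tested cerebellar genes (28.6%, beside 13.7% of all genes), and 1 fall among 16 hippocampal ones (6.25%, beside 4.44%).

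**Figure D4:**
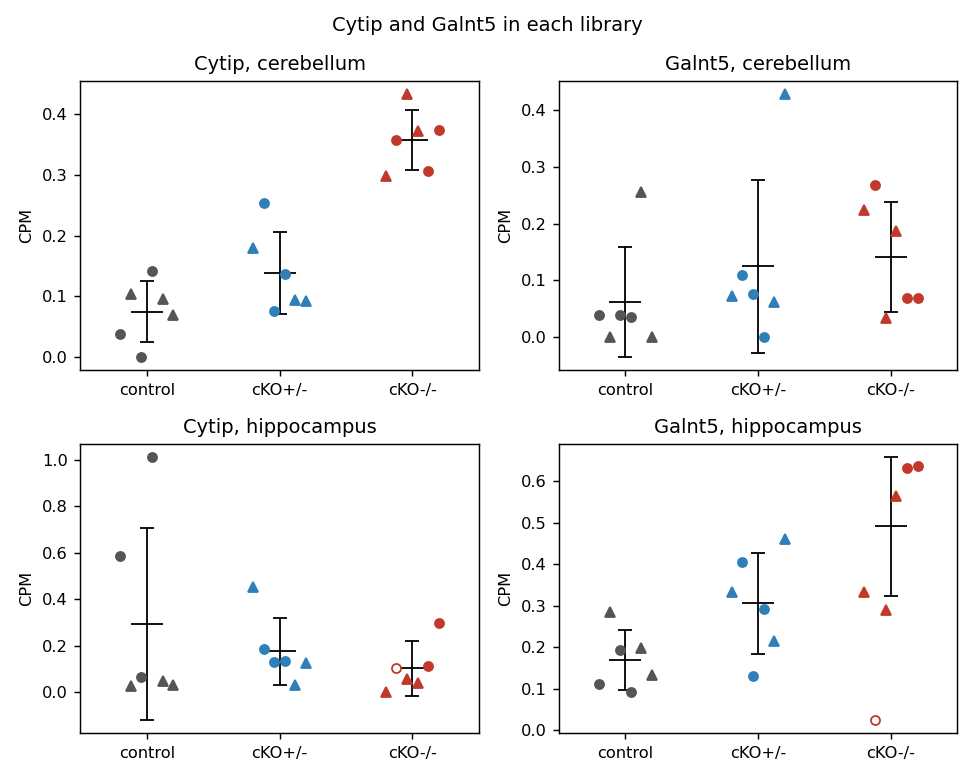
Levels in CPM (vertical axes, a different scale in each panel) of Cytip and Galnt5 in every library by genotype and tissue, with symbols, means and SDs drawn as for Gm13544. Cytip in cKO-/- cerebella lies between 0.299 and 0.433 CPM, above all controls, and the hippocampal Galnt5 value of Sample_1160, 0.0257 CPM, lies below them.

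Among the genes that passed the filter, 4.58% in the cerebellum and 3.65% in the hippocampus had all cKO-/- libraries on 1 side of all controls. Of the 5 neighbours that passed it, none was separated in either tissue.

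The wider window of 3 Mb on each side of Gm13544 held 28 other listed genes. Of these, 17 were tested in the cerebellum and 2 rose, with a median log2 fold change of 0.09 against 0.0009 over all tested genes; the share called, 11.8%, stood beside 13.7% of all genes. Ermn, which encodes the oligodendrocyte protein ermin and lies between Galnt5 and Cytip, rose by 0.33 per allele lost (95% interval 0.15 to 0.50, adjusted p = 0.0164), with a mean of 75.0 ± 10.4 CPM (SD, n = 6) in control and of 119.7 ± 33.6 CPM in the 6 cKO-/- cerebella. The summed level of 6 oligodendrocyte markers, Ermn among them, lay between 3488 and 5243 CPM in control cerebella. It lay between 3653 and 7658 CPM in cKO+/- and between 3763 and 8499 CPM in cKO-/- cerebella. Of the 6, 2 passed the FDR with a rise, Ermn itself being 1 of them, and none was at 0. The part of these cells in the rise of Ermn was not tested. Wdsub1, a gene of a WD-repeat and U-box protein 1576 kb away, rose by 0.16 (95% interval 0.06 to 0.27, adjusted p = 0.0413).

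In the hippocampus 16 of the 28 were tested and 1 passed (6.25%, beside 4.44% of all genes). Tanc1, a scaffold protein of the postsynaptic density and the nearest tested gene beyond Pkp4, fell by 0.19 per allele lost (95% interval -0.29 to -0.09, adjusted p = 0.0248), and in the cerebellum it had -0.03 (adjusted p = 0.777). Gpd2, the nearest tested gene on the other side of the 8, had 0.05 (adjusted p = 0.565) and 0.04 (adjusted p = 0.417). With a covariate for animals outside the run of numbers, none of the 28 passed in either tissue, and with Sample_1160 none passed in the hippocampus. Over all genes that covariate took the calls from 1916 to 308 in the cerebellum and from 636 to 68 in the hippocampus, and Sample_1160 took the latter to 246.

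**Figure D5:**
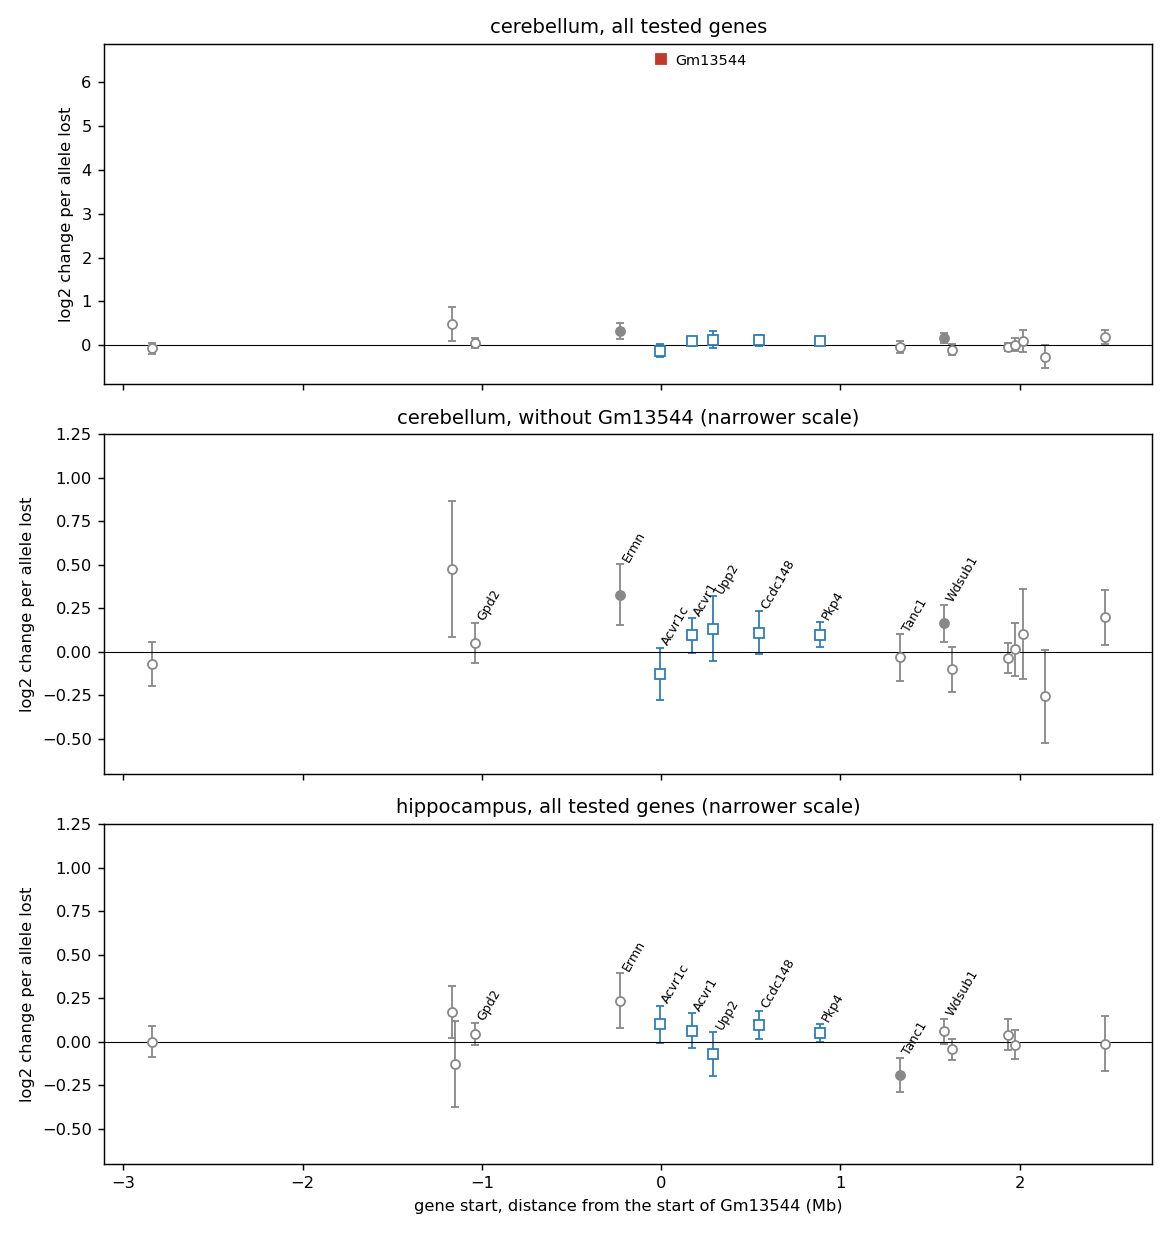
Fitted log2 change per Pogz allele lost (vertical axis) against the distance of each tested gene's start from that of Gm13544 in Mb, with 95% intervals for genes other than Gm13544, squares for the 8 genes, circles for others and filled circles for those past an FDR of 0.05; the lower 2 panels use a narrower scale. Gm13544 stands at 6.52 in the cerebellum, and all other tested genes in the window lie between -0.26 and 0.48. Genes below the filter, Cytip and Galnt5 among them, are not drawn.

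In control mice the 8 genes differed widely in level. Per kilobase the cerebellar order was Pkp4 at 83.7 ± 7.004 RPKM (SD, n = 6), Acvr1 at 9.25 ± 1.16, Acvr1c at 2.86 ± 0.18, Upp2 at 2.21 ± 0.57, Ccdc148 at 2.15 ± 0.14, Galnt5 at 0.0188 ± 0.030, Cytip at 0.0130 ± 0.009 and Gm13544 at 0. Upp2 and Ccdc148 lay within each other's spread, as did Galnt5 and Cytip. In the hippocampus Ccdc148 at 4.24 ± 0.38 RPKM (SD, n = 6) stood above Upp2 at 2.99 ± 0.42 and Acvr1c at 2.496 ± 0.31. Between tissues, where 71.9% of 14224 genes differed, control hippocampi had more Ccdc148 (log2 difference of level 1.07, 95% interval 0.91 to 1.23, adjusted p = 2.2e-08), Acvr1 (0.61, 0.43 to 0.79, adjusted p = 1.9e-05) and Upp2 (0.52, 0.18 to 0.86, adjusted p = 0.00982), and less Pkp4 (-0.20, -0.35 to -0.05, adjusted p = 0.0212). Acvr1c differed by -0.11 (-0.29 to 0.08, adjusted p = 0.279).

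Around the 2 receptors, 48 genes of activin and BMP signalling were followed, of which 38 cerebellar and 39 hippocampal genes were tested. The list was chosen for the roles of Acvr1c and Acvr1, with earlier results of these data known. Its shares of calls describe these genes and are no test of the signalling. In the cerebellum 9 rose and 2 fell (28.9% of those tested, beside 13.7% of all genes, with a median log2 fold change of 0.05), and in the hippocampus 2 rose and 1 fell (7.69%, beside 4.44% of all genes, median 0.04). Ligand genes made up most of the cerebellar calls, with 7 rises and 1 fall among 10 tested. Bmp5 rose by 0.63 per allele lost (adjusted p = 0.00342). Its mean was 17.9 ± 4.24 CPM (SD, n = 6) in control, 38.4 ± 12.1 CPM (SD, n = 6) in cKO+/- and 43.3 ± 13.7 CPM (SD, n = 6) in cKO-/- cerebella. The cKO+/- mean thus lay nearer to the cKO-/- mean, and all cKO mice carried Cre while no control did. Gdf11, an activin-like ligand, rose by 0.48 (adjusted p = 0.000119), Bmp6 by 0.37 (0.0101), Bmp7 by 0.35 (0.0148) and Bmp4 by 0.31 (0.0443). Of the genes for inhibin and activin subunits, Inhba rose by 0.64 (adjusted p = 0.0229) and Inhbb by 0.30 (0.0131), whereas Inha, whose product pairs with activin subunits to form inhibin, fell by 0.30 (0.0333).

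Of the 5 type I receptor genes other than Acvr1c and Acvr1, Bmpr1b rose by 0.18 (adjusted p = 0.0173), and no type II receptor, SMAD or target gene of the list passed in the cerebellum. Among secreted inhibitors of BMP, Nog rose by 0.45 (adjusted p = 0.00159) and Chrd fell by 0.33 (0.0180). In the hippocampus Bmp5 rose by 0.49 (adjusted p = 0.0287) and Inhbb by 0.23 (0.0426), and Lefty1, a NODAL antagonist and target, fell by 0.55 (0.00192). With the covariate for animals outside the run of numbers, 2 of the 11 cerebellar calls were left, Gdf11 (0.43, adjusted p = 0.00378) and Bmp5 (0.71, adjusted p = 0.00637). None was left in the hippocampus, either with the covariate or with Sample_1160. Over all genes the covariate took the calls from 1916 to 308 in the cerebellum and from 636 to 68 in the hippocampus. With Sample_1160, 246 hippocampal genes passed. Markers of the meninges had summed levels between 78.8 and 102 CPM in control and between 78.4 and 183 CPM in cKO-/- cerebella, 3 of the 6 rose and none was at 0. Those of the choroid plexus lay between 11.7 and 16.98 CPM in control cerebella, with 1 of 6 at 0. They lay between 10.99 and 3153 CPM (median 12.5) in cKO+/- and between 9.69 and 3014 CPM (median 32.0) in cKO-/- cerebella. None of the 3 choroid plexus markers tested there passed the FDR. Their hippocampal sums also varied widely, from 29.0 to 4877 CPM in control and from 19.8 to 4960 CPM in the fitted cKO-/- libraries. In the hippocampus meningeal markers lay between 28.7 and 85.2 CPM in control and between 57.9 and 133 CPM in the 5 fitted cKO-/- libraries, with 1 of 6 called, and endothelial markers between 79.5 and 103 CPM and between 103.6 and 154 CPM, with 3 of 6 called and none of either at 0. The part of these cell types in the calls of the list was not tested.

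Over the 18 cerebellar libraries, the 5 tested genes whose log2 levels were most like those of Gm13544 were Gm364 (Pearson r = 0.994), 9430018G01Rik (0.989), Kank4os (0.985), Amelx (0.973) and Ttn (0.960). None lies in the window: Gm364 and Amelx are on chromosome X, 9430018G01Rik on chromosome 6, Kank4os on chromosome 4 and Ttn elsewhere on chromosome 2. All 5 were low in controls and cKO+/- and high in cKO-/- mice, a pattern that follows from their choice by likeness to Gm13544. Gm364 stood at 0.00573, 0 and 22.0 CPM in the 3 genotypes and Amelx at 0.0448, 0.254 and 3.07 CPM. The libraries share their genotypes, so these are descriptions with no test. For Acvr1c the same measure was -0.43, for Pkp4 0.47, for Acvr1 0.38, for Ccdc148 0.33 and for Upp2 0.19. Within genotypes, over the 12 cKO cerebella with the genotype means removed, none of the positive values was kept. Acvr1c had 0.04, Acvr1 -0.03, Pkp4 -0.37, Upp2 -0.38 and Ccdc148 -0.57. The highest of the 5 genes most like Gm13544 there was Dpp7 with 0.889, followed by Magi1, Tro, Col20a1 and Heatr1 at 0.838 to 0.806. The cKO+/- cerebella among these libraries had 1 to 12 counts of Gm13544, most in Sample_1433, so these within-genotype values rest in part on few reads.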

How the data were processed

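The authors prepared poly(A) RNA libraries with a TruSeq kit, aligned the reads with STAR (version 250a in the submitters' notes) and deposited raw counts per gene for each tissue, as whole numbers without normalization, for 24421 genes. Their notes name mm9, but the exon coordinates deposited with the counts match GRCm38. The annotation release and the use of strand are not given in the sources used here. The gene lengths deposited in the same tables are summed exon lengths.

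CPM values used TMM factors from edgeR 4.0.16 (R 4.3.3). The test across genes, for those over 1 CPM in 6 or more libraries, was the quasi-likelihood F-test of edgeR in its legacy form with sex and the number of Pogz alleles lost, and Benjamini-Hochberg adjustment over all tested genes at an FDR of 0.05. The standard error behind a 95% interval is the log2 fold change divided by the root of F. Hippocampal filter and TMM factors used all 18 libraries and the fit 17. Genotype pairs, tissue and sex differences were further terms of such fits. Animals gave both tissues, by their numbers in the labels: deviations of the same animal's libraries from their group means had a median correlation of 0.194, with 14 of 17 animals above 0.1, and the animal was the block in an alternative fit. A gene below the filter was tested with an exact permutation of mean CPM. Likeness was Pearson's r of log2(CPM + 0.5). Alternatives were DESeq2 1.42.0, relative log expression factors, no filter, the bias-adjusted fit, no sex term, a covariate for animals numbered outside 1120 to 1219, the hippocampus with Sample_1160, and leaving out each animal in turn.

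The genes named are the 8 members, genes within 3 Mb of Gm13544 that passed in either tissue with the nearest tested gene on each side, called genes of the signalling list, the Galnt, Upp, Pkp and Ctnnd families, and the 5 genes most like Gm13544; for 12 libraries of cKO mice likewise. Members and lists were chosen with earlier results of these data known. Promoter sequences are from RefSeq, GRCm38.p6. On simulated counts, the test called 100 of 100 cerebellar genes changed by a log2 of 1 per allele and 93 of 100 changed by 0.5 (14027 genes, 9 unchanged ones called), and 99 and 97 of 100 in the hippocampus (14339 genes, 10 unchanged ones called). Changes as small as those fitted for the 5 tested neighbours, -0.13 to 0.13 per allele, were not simulated, so these figures do not cover them. Replicates are separate mice. Between 17609321 and 45544188 counts per library, a gene below 0.1 CPM rests on a few reads.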

Additional observations from a re-analysis of the deposited data

Results flagged for a closer look

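In 5 of 47 groups of libraries the highest or lowest value of a gene stood apart from the others by Dixon's criterion, which chance meets in about 1 in 20 groups. Sample_1433 stood apart for 2 genes among cKO+/- cerebella, with Gm13544 at 0.367 CPM where the next library had 0.108, and with Galnt5 at 0.429 CPM where the next had 0.109. Control Sample_1190 stood apart for cerebellar Galnt5 at 0.256 CPM, where the next had 0.0379. Cytip was high in the cKO+/- hippocampus of Sample_933 at 0.453 CPM, with the next at 0.187, and Ccdc148 in the control hippocampus of Sample_1170 at 18.01 CPM, with the next at 15.5. Apart from Ccdc148 these values rest on at most 19 counts.

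The hippocampal library of Sample_1160, outside the fits, had Gm13544 at 0.513 CPM, above the highest control at 0.0741 CPM.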

How the results depend on the processing

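Acvr1c did not pass in either tissue under any of the 24 alternatives for each, with values of -0.17 to -0.08 per allele lost in the cerebellum and 0.04 to 0.14 in the hippocampus. The fitted value of Gm13544 ran from 6.11 with DESeq2 to 7.18 without Sample_1433. Genes of the window other than Gm13544 that passed in the cerebellum numbered 2, but 0 with the covariate for animal numbers, 3 with DESeq2 (Pkp4 added), 3 with no filter (Cytip and Dapl1 in place of Wdsub1), and 1 to 2 with an animal left out: Wdsub1 was lost without Sample_1129, Sample_1170, Sample_1190, Sample_1192, Sample_938, Sample_1176, Sample_936, Sample_1160, Sample_1371, Sample_1379 or Sample_1385. In the hippocampus they numbered 1, but 2 with DESeq2 (Ermn added) or no filter (Galnt5 added), 0 with no sex term, the covariate or all 18 libraries, and 0 to 1 with an animal left out: Tanc1 was lost without Sample_1155, Sample_1190, Sample_1192, Sample_1371 or Sample_1379, and Ermn passed without Sample_1192. The signalling genes called, 11 and 3, were 2 and 0 with the covariate, 5 in the hippocampus with DESeq2 and 0 there with all 18 libraries, and ran from 7 to 13 in the cerebellum and from 1 to 6 in the hippocampus with an animal left out, and all genes called from 935 (without Sample_1385) to 2572 and from 286 (without Sample_1371) to 937. The covariate left 308 and 68 of all genes, all 18 hippocampal libraries 246, and DESeq2 called 1056 there.

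No reversed value passed the threshold in either fit. With the covariate, in the cerebellum, Upp2 and Ccdc148 per allele were -0.044 and -0.013; between cKO+/- and control, Acvr1c was 0.051, Upp2 -0.0054 and Ccdc148 -0.079; between cKO-/- and control, Upp2 was -0.082 and Ccdc148 -0.035; between cKO-/- and cKO+/-, Upp2 was -0.077. With all 18 hippocampal libraries the sex differences of Acvr1c and Ccdc148 were 0.067 and 0.0073. With an animal left out, cerebellar Upp2 between cKO-/- and cKO+/- ran from -0.047 to 0.12, and Acvr1c between cKO+/- and control from -0.16 to 0.057 in the cerebellum and -0.082 to 0.018 in the hippocampus. The cause was not tested. With the animal as a replicate block, the tissue difference was 0.24 for Acvr1c and -0.26 for Upp2 and changed no call among the 5 neighbours. By Spearman's rho the 5 genes most like Gm13544 over 18 cerebella were others, with Tmem196 first at 0.954. The mean of Tmem196 was 5.75 CPM in control, 10.5 in cKO+/- and 25.1 in cKO-/- cerebella. At these depths a gene with few reads, such as Cytip or Galnt5, allows only large differences to be seen.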
